A study of Mus musculus with 6 samples.

Results

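The protein part of the cytosolic ribosome was read here through 42 genes, out of 18193 genes with a probe set of their own on the array. A gene was taken where its symbol is that of a ribosomal protein (Rpl or Rps and a number, Rpsa, or a stalk gene Rplp0, Rplp1 or Rplp2) and at least 1 probe set lists no other gene. Pseudogenes and the Rps6k kinases were left out, and the probe set with the highest mean over the arrays stood for its gene. The 42 genes had 94 such probe sets and comprise 22 genes of the large and 20 of the small subunit. Expression was measured in calvarial osteocytes on 6 Affymetrix arrays, 3 for control mice and 3 for mice whose osteocytes lack estrogen receptor alpha (ERα). The labels give every mouse as C57/BL6, female and 10 to 12 days old, and all carried Dmp1-GFP, the reporter used to sort the cells. Controls are labelled wild-type littermates, while the extraction protocol calls them ERαflox/flox and the knockouts ERαΔOcy/ΔOcy. Neither the driver of the deletion nor its presence in controls is given in the sources used here. Effects of the recombinase and of receptor loss therefore cannot be told apart. The design states that RNA was not pooled, whereas the protocol speaks of pooled calvarial tissue and of fetal mice. If arrays of a genotype share tissue, the p-values measure technical spread and not that between mice.

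The cytosolic ribosome joins a small subunit, which reads the messenger RNA, to a large subunit, which forms peptide bonds. Its proteins are needed in fixed proportions, and their messenger RNAs are among the most abundant of growing and secreting cells. Most begin with a short run of pyrimidines, the 5′ terminal oligopyrimidine (TOP) tract, through which the mTORC1 kinase pathway and the protein Larp1 set their translation. Bone-forming cells and young osteocytes make large amounts of matrix protein, and ribosome production is regulated in them as in other secretory cells.

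Levels are log2(signal + 16) after quantile normalisation unless a deposited signal is named, and a difference is knockout minus control on that log2 scale. Array medians of the deposited signal ran from 18.7 to 28.6, lowest in control replicate 3 and highest in knockout replicate 3. The 3′ to 5′ signal ratio of the actin control probe sets, a sign of RNA integrity, was 1.93 in control replicate 2 and between 1.50 and 1.64 on the other arrays. The 5′ control probe set of 18S ribosomal RNA read 4570, 4485 and 2748 on the control arrays (replicates 1, 2 and 3, the order used throughout). On the knockout arrays it read 4260, 3311 and 2660, so the groups overlapped on this probe set. On control replicate 1 the middle and 3′ probe sets of the same RNA read 1405 and 1614, so these signals do not give its amount. Osteocyte genes were present, with a mean signal of 6650 for Dmp1, 1981 for Phex, 113 for Sost and 46.8 for Mepe, while Fgf23 had a mean of 5.5. The arrays also differed in other cells' transcripts. The summed level of 13 skeletal muscle markers was 223 in control replicate 2, 37861 and 38079 in the other controls and 4762 to 17765 in knockouts. That of 11 chondrocyte markers was 1357 to 2741 in control and 3519 to 6981 in knockout arrays. That of 9 pericyte and smooth muscle markers was 15245 to 24743 in control and 13531 to 14541 in knockout arrays.

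The signals of the ribosomal protein genes fell into 2 ranges with a gap between them. For 33 genes, 17 of the large and 16 of the small subunit, the mean deposited signal lay between 6081 (Rpl27) and 14332 (Rps29), at or above percentile 99.5 of all genes. For 9 genes it lay at 1043 or less. These are Rpl37 (1043), Rps6 (481), Rpl27a (342), Rps25 (264), Rpl12 (193), Rpl14 (156), Rps27 (145), Rpl39 (113) and Rps16 (0.25). Each of the 9 symbols is also listed on further probe sets together with pseudogenes or other genes, and the brightest of those had mean signals between 6195.5 and 11880. The dim probe sets therefore do not give the abundance of these messenger RNAs, and signals of different probe sets share no scale. In all, 110 probe sets list a ribosomal protein symbol beside others, and 27 ribosomal protein symbols appear on such shared probe sets only. They are no members and get no gene name here. Rps16 fell under the filter on low levels, so 41 members were tested.

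Ribosomal protein transcripts lay slightly above control in the knockout osteocytes for 34 of 41 tested genes and below for 7. Of all 10916 tested genes, 48.3% lay above control. The members' median difference was 0.08, while the median of all tested genes was -0.01. No member passed the test. With limma, 0 members had an adjusted p below 0.05 in either direction (0% of all tested genes), and the smallest adjusted p among them was 0.325. At an unadjusted p under 0.05, 8 members lay above and 0 below control, where 5.85% of all tested genes lay above and 4.69% below. In 16 members all 3 knockout arrays lay above all 3 controls, against 9.23% of all tested genes, and in 0 members all 3 lay below, against 7.76%. The 16 are Rps7, Rps10, Rps15, Rps18, Rps25, Rps27 and Rps28 of the small subunit and Rpl6, Rpl7, Rpl13a, Rpl19, Rpl22, Rpl27, Rpl37, Rpl37a and Rpl38 of the large one. The size of the differences was small: among the 33 bright genes the fold change ran from 0.934 (Rpl41) to 1.18 (Rps18), and 19 of the 41 differences were smaller than their own standard error. With median or 75th percentile scaling in place of quantile normalisation, 36 of 41 lay above control, against 47.1% and 48.5% of all tested genes. Only 5 members then lay above without overlap (8.45% and 9.01% of all tested genes). As deposited, 40 of 41 lay above control, but so did 76.4% of all tested genes, whose median was 0.14. In that setting 29 members lay above without overlap, against 12.4% of all tested genes.

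**Figure D1:**
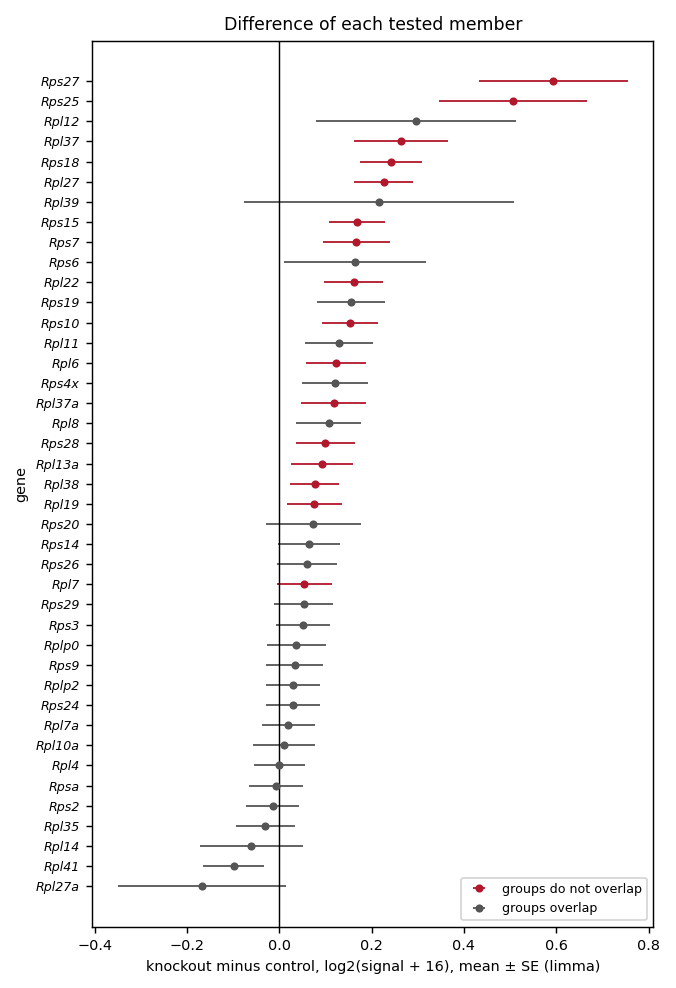
Difference between knockout and control on the log2(signal + 16) scale (x axis) for the 41 tested ribosomal protein genes (y axis), as mean ± SE from limma with n = 3 arrays a group. Red points are the 16 genes whose groups do not overlap, all to the right of 0. The widest error bars belong to dim genes such as Rpl39 and Rpl12.

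Promoter sequences are shown for the 3 bright members with the largest and the 3 with the smallest difference among those with a single start in the RefSeq table, as a view of the shared start region. The table, of build GRCm38.p6, matched 37 of 42 members with 43 windows and did not list Rpl7, Rpl8, Rps14, Rps20 and Rps29. Each sequence runs 5′ to 3′ from 100 bases before to 20 after the annotated start. Capitals mark the Ets core CCGGAAG, on either strand, and a C followed by at least 4 bases that are each C or T, on the gene's strand and starting within 10 bases of the annotated start. The 2 motifs can overlap, since the reverse of the Ets core holds CTTCC. Rps18 lies at chr17:33955646-33955765 on the minus strand, Rpl27 at chr11:101442145-101442264 on the plus strand and Rps15 at chr10:80292331-80292450 on the plus strand. Rpl41 lies at chr10:128549149-128549268 on the minus strand, Rpl35 at chr2:39005112-39005231 on the minus strand and Rps2 at chr17:24719963-24720082 on the plus strand.
Rps18: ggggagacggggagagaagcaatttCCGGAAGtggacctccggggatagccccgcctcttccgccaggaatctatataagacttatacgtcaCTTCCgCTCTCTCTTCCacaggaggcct
Rpl27: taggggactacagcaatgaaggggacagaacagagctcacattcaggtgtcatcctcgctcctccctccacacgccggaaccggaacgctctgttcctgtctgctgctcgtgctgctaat
Rps15: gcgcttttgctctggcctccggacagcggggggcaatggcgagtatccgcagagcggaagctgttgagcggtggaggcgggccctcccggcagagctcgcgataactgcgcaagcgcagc
Rpl41: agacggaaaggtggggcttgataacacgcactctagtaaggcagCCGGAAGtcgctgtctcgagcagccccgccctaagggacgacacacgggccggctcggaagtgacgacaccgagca
Rpl35: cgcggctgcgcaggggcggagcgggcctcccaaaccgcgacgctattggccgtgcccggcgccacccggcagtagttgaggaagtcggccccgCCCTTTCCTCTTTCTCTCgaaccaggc
Rps2: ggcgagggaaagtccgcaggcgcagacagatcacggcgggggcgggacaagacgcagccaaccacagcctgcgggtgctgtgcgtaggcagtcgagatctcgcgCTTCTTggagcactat

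In these windows the Ets core appeared in Rps18 and in Rpl41, which stand at opposite ends of the differences. Rps18 has 2 pyrimidine runs near its start, of 5 and 11 bases. Among the 6 sequences Rpl35, with a difference of -0.03, has the longest run, of 18 bases across its annotated start. Over full windows of 300 bases, 41.9% of the 43 member windows held the Ets core, against 8.86% of all 32851 windows. The pyrimidine run was found in 55.8% of member windows and 30.7% of all windows. The Yy1 core AAGATGG, on either strand, was in 16.3% of member windows and 6.34% of all, and TATAAA, on either strand, in 11.6% and 13.6%. A match to these letters is a description of the sequence and not a binding site.

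Small-subunit genes lay above control in 17 of 19 tested cases, with a median difference of 0.10. Rps18, a protein of the subunit's head, read 12.95, 12.85 and 12.80 in control and 13.14, 13.06 and 13.12 in knockout arrays. All knockout arrays lay above the controls, by 0.24 ± 0.07 (SE, limma adjusted p = 0.329). The other bright probe sets of Rps18 did not repeat it, with differences of -0.01 and 0.05. Rps15, also of the head, had 12.67, 12.74 and 12.65 in control and 12.89, 12.83 and 12.85 in knockout arrays, a difference of 0.17 ± 0.06 (SE, limma adjusted p = 0.416). Its second probe set differed by -0.16. Rps10, which lies near the entry of the messenger RNA and is marked by ubiquitin when ribosomes stall, had 13.35, 13.24 and 13.27 in control and 13.40, 13.47 and 13.45 in knockout arrays. Here all 5 bright probe sets lay above control, by 0.02 to 0.19. Rps7 had 13.23, 13.20 and 13.07 against 13.27, 13.32 and 13.42, with no overlap.

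The brightest small-subunit probe sets differed by less. Rps29, a zinc-binding protein of the head with the brightest probe set of all members, had deposited signals of 14789, 13346 and 12246 in control and of 15308, 14453 and 15849.9 in knockout arrays. After normalisation the values were 13.87, 13.79 and 13.71 against 13.87, 13.79 and 13.87. Rps29 was the array maximum on control replicate 1 and on knockout replicates 1 and 3. Quantile normalisation gives the top probe set of every array the same value. No knockout value could therefore lie above control replicate 1, and this overlap was set by the normalisation. Rps28 had 13.48, 13.44 and 13.32 in control and 13.52, 13.51 and 13.52 in knockout arrays, a difference of 0.10 ± 0.06 (SE). Its knockout values were above all controls, and close together only after quantile normalisation, as the deposited signals were 12377, 11737 and 12869.5. The other probe sets of Rps28 lay at -0.05 and -0.06. Rps4x, the X-linked copy of a protein that in people also has a Y-linked gene, had 13.49, 13.50 and 13.33 in control and 13.49, 13.56 and 13.63 in knockout arrays, so the groups overlapped. Rps20 had the largest within-group SD of the bright members, at 13.60, 13.54 and 13.33 against 13.57, 13.41 and 13.71. Rps2 and Rpsa were the small-subunit genes below control. Rps2, at the entry of the messenger RNA channel, had 13.22, 13.16 and 13.22 in control and 13.17, 13.22 and 13.17 in knockout arrays. Rpsa, known also as a laminin receptor precursor, had 13.04, 13.12 and 13.10 against 13.11, 13.08 and 13.05. Both differences, at -0.01 ± 0.06 (SE), were well inside the spread of the arrays.

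Large-subunit genes lay above control in 17 of 22 cases, with a median difference of 0.08. Rpl27 read 12.45, 12.45 and 12.41 in control and 12.60, 12.70 and 12.69 in knockout arrays. It differed by 0.23 ± 0.06 (SE, limma adjusted p = 0.329), without overlap, and its dimmer probe sets lay at 0.14 and 0.26. Rpl22, a protein that has a close paralog in Rpl22l1, had 12.64, 12.67 and 12.64 in control and 12.78, 12.77 and 12.89 in knockout arrays, a difference of 0.16 ± 0.06 (SE, limma adjusted p = 0.446). Its further probe sets also lay above control, at 0.12 and 0.20. Rpl38, needed for the translation of a set of Hox messenger RNAs in the embryo, had 13.55, 13.56 and 13.55 in control and 13.63, 13.67 and 13.61 in knockout arrays. The shift of 0.08 ± 0.05 (SE) was small. The control SD of 0.0059 (n = 3) holds only after quantile normalisation, as the deposited control signals were 12325, 11423 and 10727. With median scaling the shift was 0.05 (limma adjusted p = 0.926). Rpl13a, which leaves the ribosome in interferon-treated myeloid cells to silence messenger RNAs, had 13.47, 13.43 and 13.28 against 13.48, 13.47 and 13.50. The groups were only just apart, with the lowest knockout value at 13.4742 and the highest control value at 13.4683. Its other bright probe set lay at -0.03, and its dimmer ones at 0.13 and 0.09.

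The stalk of the large subunit recruits and activates the elongation factors. Its scaffold gene Rplp0 had 13.42, 13.49 and 13.57 in control and 13.56, 13.54 and 13.49 in knockout arrays. Rplp2, an acidic tip protein, had 13.43, 13.47 and 13.42 against 13.41, 13.49 and 13.51. Both overlapped between groups, with differences of 0.04 ± 0.06 and 0.03 ± 0.06 (SE). Rplp1 had no probe set of its own.

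Of the large-subunit genes below control, Rpl41 was the bright one with the largest difference. It encodes a very short basic peptide, and had 13.34, 13.41 and 13.48 in control and 13.31, 13.37 and 13.25 in knockout arrays. Its groups overlapped, at -0.10 ± 0.07 (SE, limma adjusted p = 0.629). Its second bright probe set lay at -0.14, and its dim ones at 0.35 and 0.26. Rpl35, at the mouth of the peptide exit tunnel, had 13.27, 13.39 and 13.24 against 13.24, 13.26 and 13.30, while its other probe sets ran from -0.02 to 0.23. As deposited, with the median of all genes at 0.14, Rpl41, Rpl35, Rps2 and Rpsa had differences of 0.06, 0.13, 0.15 and 0.19, so the sign of these genes depended on the scaling.

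**Figure D2:**
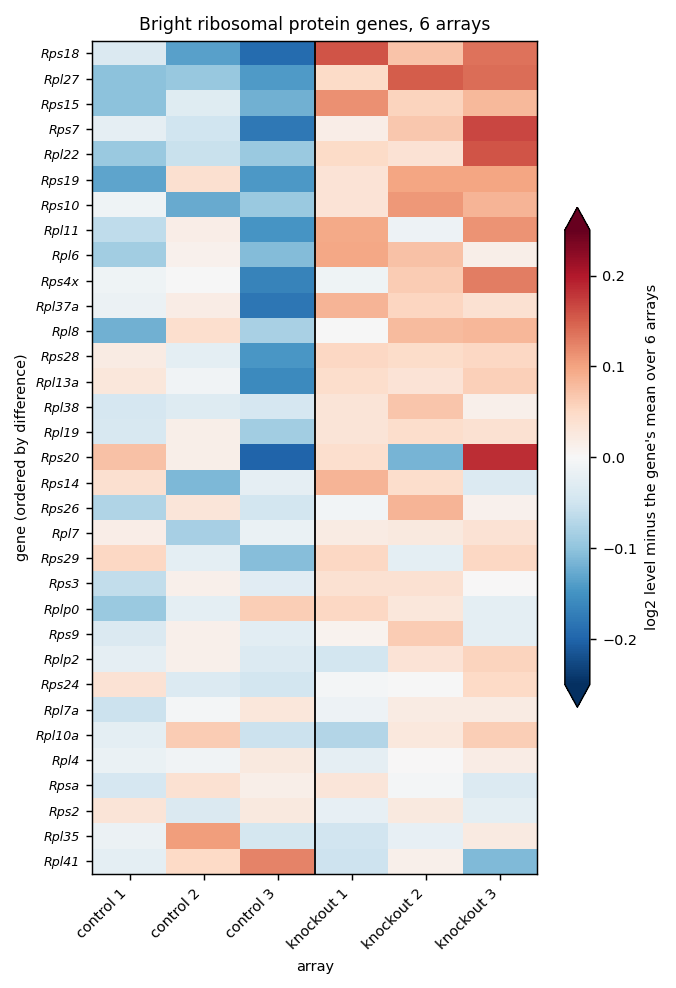
Log2 level of the 33 bright ribosomal protein genes on each array (colour, from blue at -0.25 to red at 0.25), after subtracting each gene's mean over the 6 arrays. Genes run down the y axis in the order of their difference, and arrays along the x axis. On control replicate 3 only 6 of the 33 genes lay above their own mean, against 22, 27 and 27 on the knockout arrays.

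The largest fold changes belonged to dim probe sets. Rps27, a zinc finger protein of the small subunit, had deposited signals of 111, 88.5 and 109 in control and 135, 172 and 257 in knockout arrays. The groups did not overlap, and this probe set lay 1.51-fold above control (log2 difference 0.59 ± 0.16, SE, limma adjusted p = 0.325). The symbols Rps27 and Rps25 are also listed on shared probe sets with mean signals of 7341 and 6195.5. No shared probe set over 5000 lay above control by more than 0.27. Rps25, which viral and cellular internal entry sites need for initiation, had signals of 207, 249 and 156 against 320.5, 314 and 338, a 1.42-fold difference (0.51 ± 0.16, SE, limma adjusted p = 0.377). It was the 1 member that passed the threshold without control replicate 2 (0.66, limma adjusted p = 0.0431). In that run 86 of all 10916 tested genes were called higher and 212 lower. The array left out held the highest control signal of Rps25. Rpl37 had 917, 921 and 818 against 1119, 954 and 1529, without overlap after normalisation. Rpl12, at the base of the stalk, had 238, 102.5 and 153.5 against 202, 191 and 269, and after normalisation the knockout levels of 7.78, 7.76 and 7.84 lay between the lowest control at 6.996 and the highest at 7.92. Rpl39, which lines the exit tunnel, had 126, 58.4 and 100 against 70.8, 126 and 194. Rpl27a (395, 386 and 259 against 310, 380 and 320) and Rpl14 (160, 166 and 128 against 155, 147 and 182) lay below control, by -0.17 ± 0.18 and -0.06 ± 0.11 (SE), with overlap. Rps6, the classical substrate of the S6 kinases, differed by 0.16 ± 0.15 (SE). Rps16 had signals of 0.2, 0.3 and 0.2 in control and 0.2, 0.2 and 0.4 in knockout arrays, which gives no fold.

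Ribosomal protein genes varied little between arrays after quantile normalisation. The median standard deviation within groups was 0.064 for the members, 0.054 for the 33 bright ones, 0.166 for all tested genes and 0.093 for the 118 tested genes with a level of 12 or more that are no members. Those 118 genes had a median difference of -0.05, with 42 above and 76 below control. Of these 118, 9 genes (7.63%) lay above and 17 below control without overlap. With every gene's mean over the 6 arrays subtracted, the median of the 42 members stood at -0.02, -0.00 and -0.08 in control and at 0.03, 0.04 and 0.05 in knockout arrays. Of the 41 tested members 12, 19 and 7 lay above their own mean on the control arrays, and 28, 33 and 32 on the knockout arrays. Control replicate 3 was the lowest array, and without it the median difference was 0.06. Among the bright members the deposited signal was lowest in control replicate 3 for 33 of 33, and highest in knockout replicate 3 for 32 of 33. These are also the arrays with the lowest and highest median signal.

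**Figure D3:**
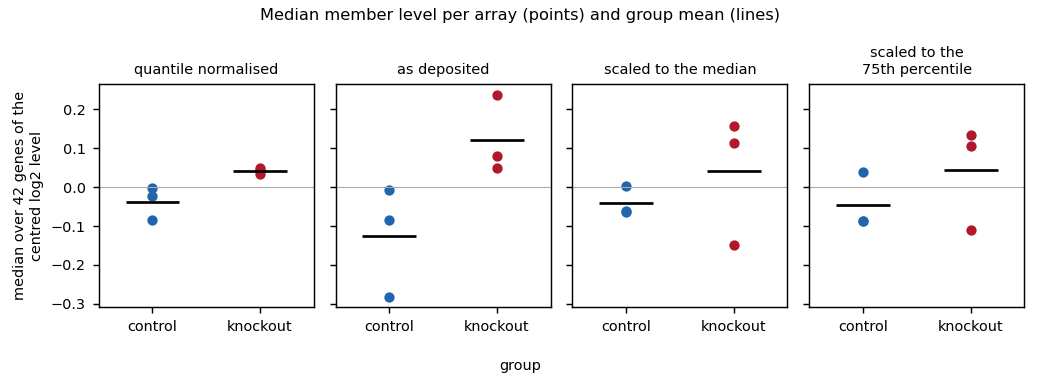
Median over the 42 genes of the centred log2 level (y axis) on each control (blue) and knockout (red) array under 4 scalings (panels), with lines at group means. The groups are apart when quantile normalised and as deposited, while knockout replicate 3 is the lowest array at -0.15 with the median scaling and at -0.11 with the 75th percentile scaling.

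With arrays scaled to a common median, the median member stood at 0.11 and 0.16 in knockout replicates 1 and 2 but at -0.15 in knockout replicate 3, below the controls at -0.06, 0.00 and -0.06. The mean difference of these array medians was 0.08 both there and after quantile normalisation, and 0.25 as deposited. The members' median less that of all genes was 0.08 when quantile normalised, 0.12 as deposited and 0.10 with either other scaling.

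Probe sets of the same gene differed by as much as the groups did. Of 94 probe sets, 59 had a mean signal over 5000, and 14 genes had at least 2 of these. In 8 of the 14 the bright probe sets lay on both sides of 0. The range between them had a median of 0.17 and reached 1.10 in Rpl7, where 1 probe set had a signal of 969 in control replicate 2 and between 3852.5 and 8796 on the other arrays. The chosen probe sets carry the array maker's suffix for possible cross-hybridisation in 14 (x) and 2 (s) cases, and ribosomal protein genes have many processed pseudogenes, so related transcripts can add to the signal of these 16. With probe sets free of these suffixes preferred, 34 of 41 lay above control and 13 did so without overlap, against 48.3% and 8.94% of all tested genes. Rpl37, Rpl38, Rps2, Rps14 and Rps29 have only x probe sets and kept them. Rpl41, Rps20, Rps24 and Rps9 moved to dim ones, with mean signals of 274, 44.8, 105 and 55.3. Those differed by 0.26, 0.44, 0.45 and 0.23. This count is therefore not one over bright probe sets free of the suffixes. The 71 bright probe sets shared with pseudogenes or other genes, an addition made after the data were seen, had a median difference of 0.05. Of these, 52 lay above and 19 below control, where 48.3% of all tested genes lay above in the main setting. The 110 shared probe sets list only 42 ribosomal protein symbols, some of them members, so they are not separate observations.

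Genes that work with the ribosome were read from gene lists, in which 0 genes passed the limma threshold. At an unadjusted p under 0.05, 6 of 23 TOP genes and 3 of 39 biogenesis factors lay above control. So did 1 of 24 genes of the mTORC1 and Myc list, 1 of 15 quality control genes and 1 of 8 paralogs. Of all tested genes 5.85% lay above at this p and 4.69% below. Below control were 1 TOP gene, 2 quality control genes and 2 of 76 mitochondrial ribosomal protein genes. Of 23 translation-related genes with TOP messenger RNAs, 16 lay above and 7 below control, with a median of 0.11, and 10 lay above and 3 below without overlap, where 9.23% of all tested genes lay above and 7.76% below. Npm1, a nucleolar chaperone of ribosome assembly, had 11.95, 11.66 and 11.89 in control and 12.19, 12.17 and 12.06 in knockout arrays (0.31 ± 0.09, SE, limma adjusted p = 0.375). Gas5, a noncoding host gene of small nucleolar RNAs with a TOP tract, had 11.25, 11.68 and 11.60 against 11.86, 11.86 and 11.89, and Eif3m, a subunit of initiation factor 3, differed by 0.25 ± 0.08 (SE). Ribosome biogenesis factors lay above control for 27 and below for 12 of 39, with a median of 0.07. Taf1d, of the RNA polymerase I selectivity factor, had 7.88, 7.87 and 7.79 in control and 8.60, 8.13 and 8.60 in knockout arrays, a 1.51-fold difference (limma adjusted p = 0.291). Polr2f, a subunit shared by the RNA polymerases, was at 0.34 ± 0.09 and Pes1, of the large-subunit processing complex, at 0.46 ± 0.15 (SE).

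Regulators of ribosome production in the mTORC1 and Myc pathways lay above control for 13 and below for 11 of 24, with a median of 0.06. The smallest p-values belonged to Larp4, an RNA-binding protein, at 0.26 ± 0.10, Gabpa, an Ets factor, at 0.24 ± 0.11, and Akt1s1, an mTORC1 inhibitor, at 0.22 ± 0.11 (SE), of which Akt1s1 overlapped between groups. Genes of ribosome quality control and stress were split, 8 above and 7 below control. Ddit3, a transcription factor of the stress response, was at 0.48 ± 0.12, while Pelo and Ltn1, which rescue stalled ribosomes and tag their unfinished peptides, were at -0.62 ± 0.21 and -0.29 ± 0.12 (SE). Of 8 tested paralogs and fusion genes of ribosomal proteins outside the pattern, 4 lay above and 4 below control, with differences from -0.96 to 0.30. Rpl39l at 0.30 ± 0.12 and Rps27l at 0.26 ± 0.12 (SE) lay above without overlap, and 0 genes of this list below. Of all tested genes 9.23% lay above and 7.76% below without overlap. Rps3a1, a small-subunit gene whose symbol lies outside the pattern, was at 0.08 ± 0.06 (SE).

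Mitochondrial ribosomal proteins build the separate ribosome of that organelle, and lay above control for 37 and below for 39 of 76 genes, with a median of -0.01. Without overlap, 1 gene lay above and 6 below control, where 9.23% of all tested genes lay above and 7.76% below, so the count below is near that background. Mrpl49 had 7.17, 7.26 and 7.46 in control and 6.91, 6.74 and 7.02 in knockout arrays, a difference of -0.40 ± 0.13 (SE), and Mrpl47 and Mrpl39 were at -0.28 ± 0.10 and -0.25 ± 0.11 (SE). The difference between this list and the cytosolic members was not tested.

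**Figure D4:**
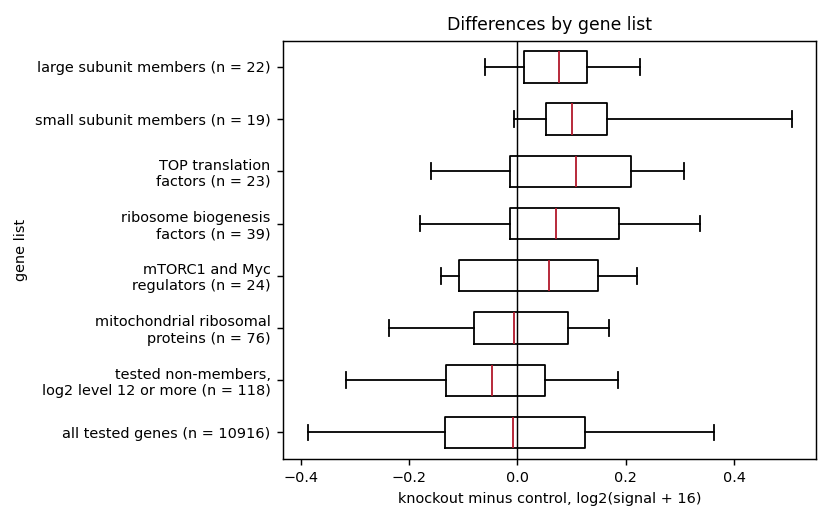
Difference between knockout and control on the log2(signal + 16) scale (x axis) for the tested genes of 8 lists (y axis, with the number of genes). Boxes span the quartiles with the median in red, and whiskers the 5th to 95th percentile. Medians of the large and small subunit members are 0.08 and 0.10, against -0.01 for all tested genes and for mitochondrial ribosomal proteins.

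Marker transcripts of other cells also differed between these arrays. With limma 0 of them passed the threshold. At an unadjusted p under 0.05, 10 of 11 chondrocyte, 1 of 7 osteoblast, 1 of 6 osteoclast and 1 of 7 endothelial markers lay above control. Below control were 4 of 9 pericyte, 2 of 11 osteocyte, 1 of 7 osteoblast and 1 of 7 endothelial markers. Of all tested genes 5.85% lay above and 4.69% below at this p. Chondrocyte markers lay above control for 11 of 11 genes, with a median difference of 1.44, and pericyte and smooth muscle markers below for 9 of 9, with a median of -0.46. Skeletal muscle markers lay below control for 7 of 11, by a median of -0.49. Myeloid markers lay below control for 7 of 11, with a median of -0.10, and their summed level was 2979 in control replicate 1, 7962 and 7880 in the other controls and 4534 to 6830 in knockout arrays. Osteocyte markers lay below control for 7 of 11, with a median of -0.09. Dkk1, a Wnt inhibitor made by osteocytes, was at -0.70 ± 0.20 without overlap and Dmp1, whose promoter drives the sorting reporter, at -0.30 ± 0.10 (SE) with overlap, both named after their values were seen. Of lymphoid markers, 0 passed the level filter, and their summed level was 72.1 to 127 on all arrays. Erythroid markers had 1 tested gene and a summed level of 49.6 to 83.6. In such sorted populations a change in the share of a cell type and a change in RNA per cell cannot be told apart. The part of chondrocyte, pericyte, muscle, myeloid or osteocyte transcripts in the ribosomal protein values was not tested. Control replicate 2, which had the lowest muscle marker level, stood between the other controls and the knockouts in the members' median after quantile normalisation, and without it the median difference was 0.09.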

How the data were processed

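The authors deposited a linear signal intensity for each probe set and array. The submitters' processing notes name GCOS, while its background correction, probe summary and scaling are not stated in the sources used here. Of 45101 probe sets, 64 controls were dropped. Platform annotation named a single gene for 34945, of which 34741 matched the RefSeq gene table. Values were computed as log2(signal + 16) and quantile normalised, because log2 array medians spanned 0.61. Each gene took its brightest probe set, the lowest 40% of 18193 genes were left out, and 10916 were tested with limma 3.58.1 in R 4.3.3 (lmFit, eBayes with trend, 2-sided, Benjamini-Hochberg at 0.05) on 6 arrays with no covariate. The number of arrays limits the precision. Low signals pull a fold change on this scale towards 1. On simulated data with 10916 genes the fit recovered 30.3% of genes changed 1.5-fold, 69.4% of those changed 2-fold and 94.2% of those changed 4-fold. It made 4.9 false calls per run. Noise was drawn for each gene on its own, without shifts shared by the genes of an array. The changed genes came from all levels and no smaller change was simulated, so these rates do not describe the bright members.

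Alternatives changed the scaling, pseudocount (4 or 64), filter (0 or 60%), probe set rule, trend, array weights, replicate block and the arrays used. Members named with values were the 8 brightest, the 6 with the largest difference each way, Rplp0, Rplp2, Rpsa, the X-linked genes, and the 5 most variable and 5 dimmest, plus Rps6, Rps7, Rps10, Rps15, Rpl7 and Rpl22, named after their values were seen. Of each list up to 3 genes with the smallest p were named. Members and lists were chosen with earlier results of these data known.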

Additional observations from a re-analysis of the deposited data

How the results depend on the processing

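The members' median difference was above 0 and above that of all genes in each alternative run. It was 0.08 in the main setting, 0.25 as deposited, 0.074 over the 33 bright members (chosen after seeing the data), and 0.06 to 0.10 with 1 array left out. The number of genes called over all 10916 was 0 higher and 0 lower in limma (639 and 512 at an unadjusted p under 0.05). It was 30 higher as deposited, and ran from 0 to 86 higher and from 0 to 212 lower with 1 array left out, the upper values without control replicate 2. Called members ran from 0 to 1 higher and were 0 lower there. Shared probe sets, also added later, gave 0 calls in a separate limma fit without a filter. In that fit 0 of all 45037 probe sets were called. Among 21 named members, 11 kept their sign in all alternatives and 1 was called in 1 alternative. As deposited Rpl41, Rpl14, Rpl35, Rps2 and Rpsa turned to 0.061, 0.085, 0.13, 0.15 and 0.19. Rpsa was 0.029 with the median and 0.036 with the 75th percentile scaling. With the mean of all probe sets Rps28 was -0.0045, Rpl41 0.092, Rpl35 0.081 and Rpsa 0.067. Without x or s probe sets Rpl13a was -0.028, Rpl41 0.26 and Rpl35 0.17. With 1 array left out Rps20 ran from -0.0060 to 0.14, Rplp0 from -0.0016 to 0.073, Rpl14 from -0.11 to 0.017, Rpl35 from -0.058 to 0.013, Rpsa from -0.029 to 0.011 and Rpl39 from -0.030 to 0.50. Their signs turned without control replicate 3 (Rps20), 1 (Rplp0) or 2 (Rpl14, Rpl35, Rpsa and Rpl39), and for Rpsa also without knockout replicate 3. The cause was not tested. Same-numbered arrays deviated together with correlations of -0.38, 0.10 and -0.04, and differently numbered ones with -0.34 to 0.42. With 3 arrays a group these values cannot decide whether the numbers pair samples. With the replicate block 0 genes were called and the members' median was 0.08. With 3 arrays a group, the standard errors of bright members were 0.05 to 0.10, and a 2-sided exact permutation p cannot fall under 0.1.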
